A study of Mus musculus with 8 samples.

Results

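Cardiac calcium cycling was measured here through 10 genes of the sarcoplasmic reticulum and the surface membrane of muscle cells: Ryr2, Trdn, Asph, Casq2, Casq1, Atp2a2, Pln, Sln, Slc8a1 and Camk2d. Every probe set whose annotation was one of these symbols alone was taken, which gave 38 of the 45101 probe sets, and 10 of the 18194 singly annotated genes, of an Affymetrix mouse whole-genome array. The tissue was the atrioventricular canal, the segment of the embryonic heart in which the valves begin as endocardial cushions wrapped in muscle. The mutant pools were Gata4flox/flox with the T2Cre transgene, and the control pools were Gata4flox/flox without a Cre in their label, so loss of the transcription factor Gata4 and presence of Cre cannot be told apart. T2Cre is Cre under the promoter of Tie2, which is active in endothelium and is inherited by cushion mesenchyme, and the muscle of the canal was therefore not the targeted tissue. All mice had a mixed C57BL6/129 background, the labels give no age, and each of the 4 mutant and 4 control samples was a pool of 10 dissected canals. Because whole canals were measured, a larger share of muscle cells and more RNA per muscle cell cannot be told apart.

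Each heartbeat is a cycle of calcium release and re-uptake. Calcium that enters through surface channels opens the ryanodine receptor, calcium leaves the sarcoplasmic reticulum and reaches the myofilaments, and relaxation follows when the SERCA pump returns it to the store and the sodium-calcium exchanger carries the rest out of the cell. The exchanger and the release channel are already at work in the embryonic heart. Calsequestrin buffers calcium in the store, triadin and junctin hold calsequestrin to the release channel, phospholamban and sarcolipin restrain the pump, and calcium/calmodulin-dependent kinase II adjusts several of these proteins by phosphorylation.

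Values are log2(signal + 16) of the deposited array intensities after quantile normalization, and a log2 change is mutant minus control. The background cut-off of an array was set at the 90th percentile of its 27 probe sets for bacterial transcripts, and a probe set brighter than that is called above background. That cut-off lay between 21.4 and 65.4 on the mutant arrays and between 51.1 and 316 on the control arrays, with 316 on control 2 and 270 on control 3, so dim genes were measured less well on those 2 arrays. Markers of the tissue were present: all 15 cardiomyocyte markers were above background on all 8 arrays, as were all 10 cushion mesenchyme markers and 6 of 10 endothelial markers.

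Of the calcium cycling probe sets, 1 passed the threshold, a Ryr2 probe set that rose in the mutant pools, and 0 fell. The filter on dim probe sets left 35 of the 38, for 9 of the 10 genes, with both Sln probe sets and 1 Camk2d probe set removed. Over all 27022 probe sets tested, 0.0444% passed at an adjusted p of 0.05 in limma (0.0259% higher and 0.0185% lower). At an unadjusted p of 0.05, 12 of the 35 were higher and 2 were lower, while over all probe sets tested 1975 were higher (7.31%) and 1441 lower (5.33%). Positive changes numbered 24 and negative changes 11, with a median of 0.16 against 0.03 over all probe sets tested. On the brightest probe set of each of the 9 genes, 7 changes were positive and 2 negative, with a median of 0.24. The mutant and control values did not overlap for 5 of the 35 probe sets, all of them higher in the mutants, which is 14.3% against 7.63% of all probe sets tested (4.44% higher and 3.19% lower). With each array centred on its median, a scaling that shifted the median of all probe sets by 1.13, 28 of the calcium cycling probe sets were called higher and 1 lower, among 17251 and 1956 in all against 7 and 5 here. The sign of the change turned for 4 of the 35 on the authors' scaling and, relative to that shift, for 5 with median-centred arrays. The median signal was 268 and 254 on controls 2 and 3, against 71.5 to 125 on the other arrays. Median centring thus lowered the values of those 2 controls most, for bright and dim probe sets alike.

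**Figure D1:**
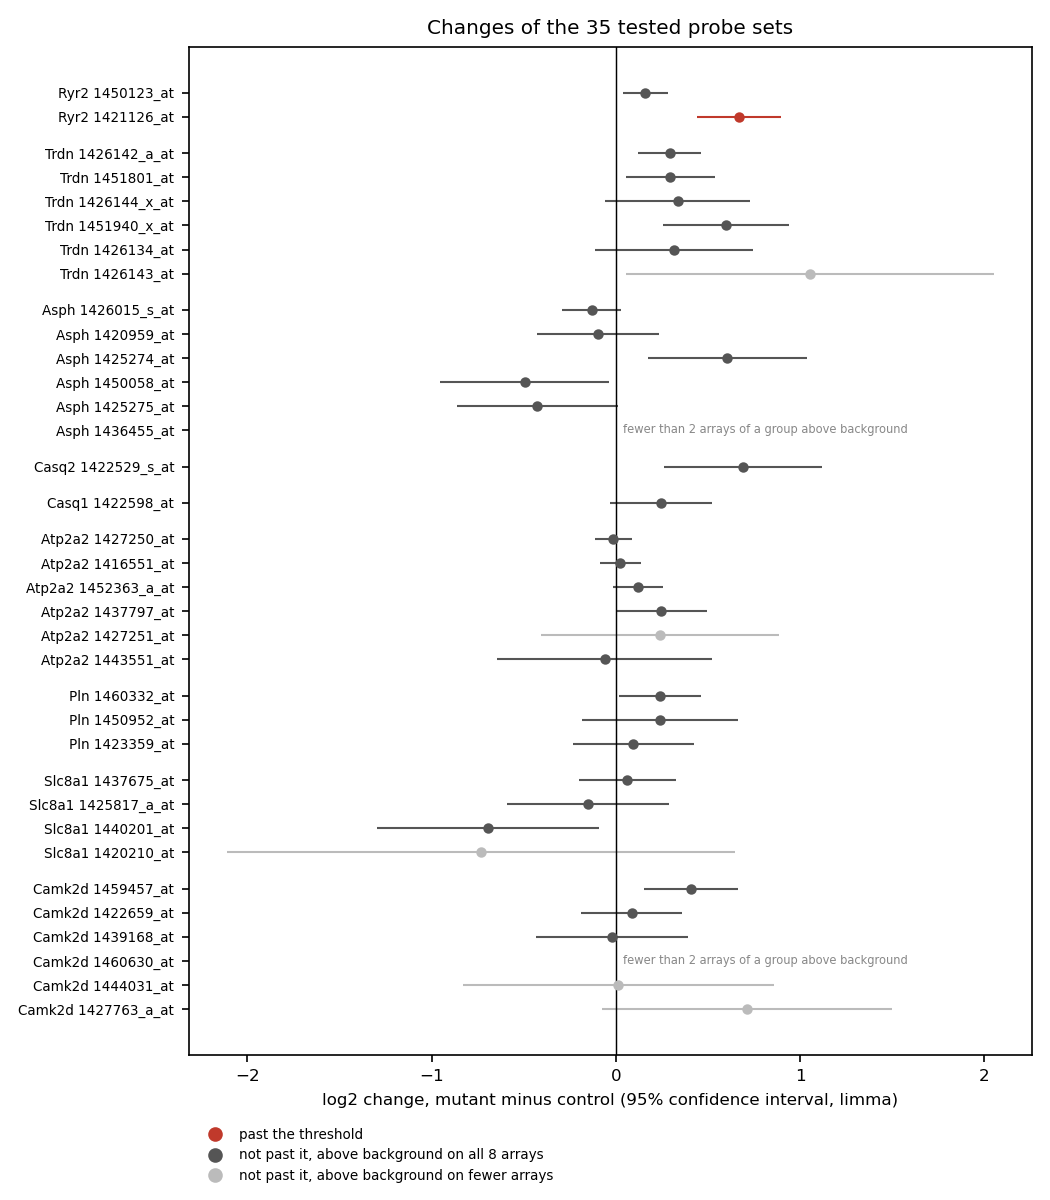
Log2 change (mutant minus control, x axis) with its 95% confidence interval for the 35 tested probe sets, grouped by gene; the 2 above background on fewer than 2 arrays of a group are named with no point. The Ryr2 probe set 1421126_at, at 0.67, is the 1 point past the threshold; the Trdn points all lie right of 0, while Asph, Slc8a1, Atp2a2 and Camk2d have points on both sides.

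Ryr2 encodes the calcium release channel of the cardiac sarcoplasmic reticulum. Its probe set 1421126_at had log2 values of 11.15, 10.90, 11.15 and 11.05 in mutants 1 to 4, against 10.40, 10.73, 10.48 and 10.33 in controls 1 to 4. Every mutant pool was above every control pool, with control 2 nearest to the mutants and mutant 2 nearest to the controls. The probe set rose by 0.67 on the log2 scale (SE 0.11, 95% confidence interval 0.44 to 0.895, limma adjusted p = 0.0269), which is 1.59-fold, with group means of 11.07 ± 0.12 in the mutants and 10.48 ± 0.18 in the controls (SD, n = 4 each). On the deposited scale its signals were 1956 to 2458 in the mutants and 1305 to 1515 in the controls, above the background cut-off on all 8 arrays.

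The other Ryr2 probe set, 1450123_at, had log2 values of 13.05, 13.06, 13.07 and 12.98 in mutants 1 to 4 and of 12.85, 12.67, 12.91 and 12.96 in controls 1 to 4. The groups again did not overlap, but mutant 4 and control 4 were only just apart. Its change was 0.16 (SE 0.06, 95% confidence interval 0.04 to 0.28, adjusted p = 0.310), and it did not pass. The intervals of the 2 probe sets did not overlap, so they gave different sizes for the same gene. The sources used here do not say which part of the transcript each one reads.

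The size of the Ryr2 change on probe set 1421126_at was steadier than its call. It lay between 0.54 and 0.75 under the settings tried other than median centring, while the adjusted p ran from 0.00840 to 0.303. The call was lost without array weights (0.58, adjusted p = 0.158), with plain eBayes (0.67, adjusted p = 0.303), without controls 2 and 3 (0.75, adjusted p = 0.0782), with the 3 prime to 5 prime ratio of control transcripts as a covariate (0.63, adjusted p = 0.0695), without mutant 1 (0.65, adjusted p = 0.0704) and without mutant 4 (0.68, adjusted p = 0.0539).

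**Figure D2:**
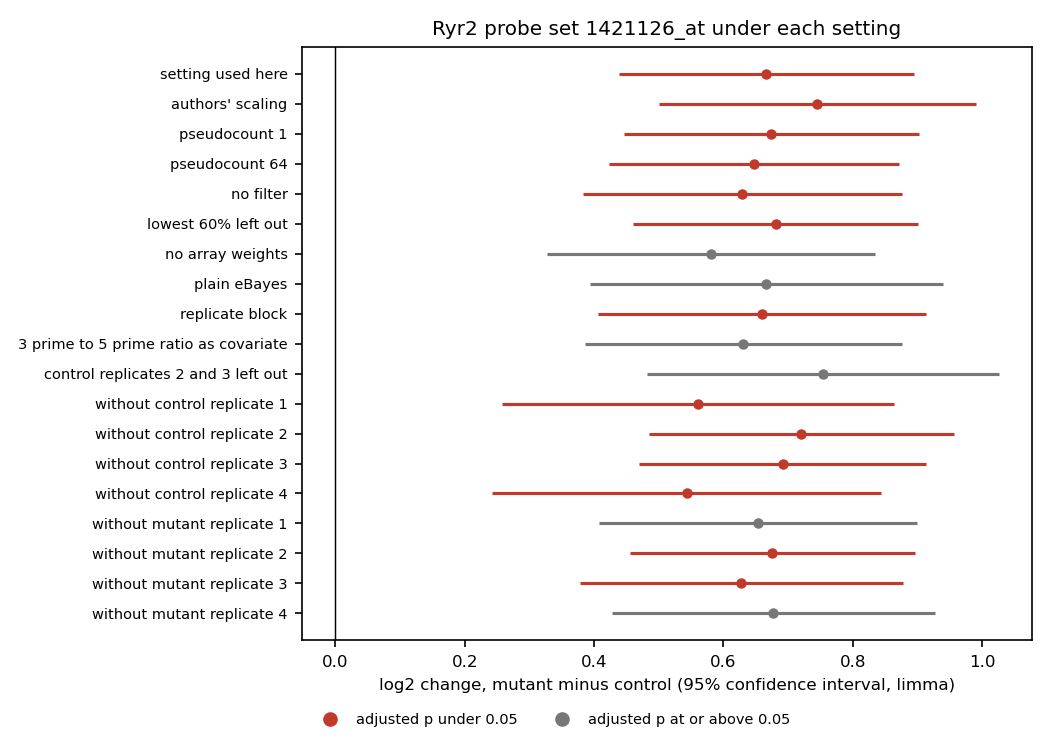
Log2 change of Ryr2 probe set 1421126_at (x axis, with 95% confidence interval) under each processing setting, red where the limma adjusted p was under 0.05. Every interval lies right of 0, and 6 of the 18 alternatives shown are grey; median-centred arrays, where the change was 0.98 beyond the shift of all probe sets, are not drawn.

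Trdn encodes triadin, which anchors calsequestrin at the release channel. Its 6 probe sets all had positive changes, with a median of 0.33, and 0 passed (4 were higher and 0 lower at an unadjusted p of 0.05 in limma). The brightest, 1426142_a_at, had log2 values of 12.04, 11.91, 11.91 and 11.92 in mutants 1 to 4 and of 11.68, 11.89, 11.41 and 11.59 in controls 1 to 4. The groups did not overlap, although control 2 lay only just below the lower mutants. Its change was 0.29 (SE 0.08, 95% confidence interval 0.12 to 0.46, adjusted p = 0.236).

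Among the other Trdn probe sets, 1451940_x_at had the smallest p. Its change was 0.598 (SE 0.16, adjusted p = 0.220), with 9.90, 9.64, 9.74 and 9.92 in mutants 1 to 4 against 9.04, 9.06, 9.77 and 9.34 in controls 1 to 4, where control 3 lay among the mutants. It passed without control 3 (0.74, adjusted p = 0.0398). The x in its name marks probes that can bind other transcripts. Probe sets 1451801_at, 1426144_x_at and 1426134_at had changes of 0.296, 0.33 and 0.32. The dimmest, 1426143_at, did not overlap between groups, with 8.62 to 8.96 in the mutants and 5.34 to 8.48 in the controls, but it was above background only on controls 1 and 4, and its change of 1.05 was 0.40 without controls 2 and 3.

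Asph yields both aspartyl beta-hydroxylase, an enzyme of the endoplasmic reticulum in many cell types, and the shorter junctin, the partner of triadin at the release channel. Its probe sets pointed in both directions: of 6, 5 had negative changes and 1 a positive one, and 0 passed (1 was higher and 1 lower at an unadjusted p of 0.05 in limma). The brightest, 1426015_s_at, had log2 values of 12.64, 12.33, 12.62 and 12.68 in mutants 1 to 4 and of 12.79, 12.56, 12.68 and 12.76 in controls 1 to 4, and the groups overlapped. Its change was -0.13 (SE 0.08, adjusted p = 0.483), and it lay 0.56 above the median of all probe sets when arrays were centred on their medians, so that its direction depended on the scaling.

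The Asph probe set with a positive change was 1425274_at, at 0.60 (SE 0.20, adjusted p = 0.284). It had 9.59, 9.35, 9.76 and 9.52 in mutants 1 to 4, against 8.79, 8.99, 8.35 and 9.58 in controls 1 to 4, where control 4 lay among the mutants, and it passed when control 4 was left out (0.91, adjusted p = 0.0347). Probe set 1425275_at had a change of -0.43 (SE 0.21, adjusted p = 0.405), and 1450058_at had -0.49 (SE 0.22, adjusted p = 0.370). No source used here says which of these probe sets reads the enzyme and which reads junctin, so the gene has no single direction in these arrays.

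Casq2 encodes cardiac calsequestrin, the calcium buffer of the store. Its 1 probe set, 1422529_s_at, had log2 values of 9.70, 9.92, 9.54 and 9.71 in mutants 1 to 4, against 9.37, 8.39, 8.23 and 8.87 in controls 1 to 4. All mutants were above all controls, and the controls spread far more widely, with 9.72 ± 0.16 in the mutants and 8.72 ± 0.51 in the controls (SD, n = 4 each). Its change of 0.69 (SE 0.20, 95% confidence interval 0.26 to 1.12, adjusted p = 0.244) was the largest on the brightest probe sets of the 9 genes and did not pass. It passed without control 1 (1.25, limma adjusted p = 0.0154) and without control 4 (1.08, limma adjusted p = 0.0257). Those are the 2 control arrays with the higher Casq2 values after quantile normalization and the lower backgrounds. Controls 3 and 4 both had a deposited signal of 434, so the normalization set their log2 values of 8.23 and 8.87 apart. On the deposited scale its signals were 753 to 878 in the mutants and 434 to 614 in the controls, against background cut-offs of 316 and 270 on controls 2 and 3. Without those 2 arrays the change was 0.61 (adjusted p = 0.626).

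Casq1 encodes the calsequestrin best known from fast skeletal muscle. Its probe set 1422598_at was above background on all 8 arrays, with log2 values of 11.01, 11.09, 10.69 and 10.86 in mutants 1 to 4 and of 10.79, 10.15, 10.48 and 10.53 in controls 1 to 4. The groups overlapped, since control 1 lay above mutant 3, and the change was 0.25 (SE 0.13, adjusted p = 0.444). Markers of skeletal muscle were mostly at background: of 7, only Tnnt3, a fast troponin T, was above background on all 8 arrays, Myh3 was above it on 0 arrays, and the muscle regulator Myog on 0 mutant arrays and 1 control array. Myod1, another regulator, was above background on 0 mutant and 3 control arrays. For Myf5 it was 1 mutant and 1 control array, and for Pax7 0 mutant arrays and 1 control array. The Casq1 signal was thus measured in tissue in which most of these skeletal markers were not well above background.

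**Figure D3:**
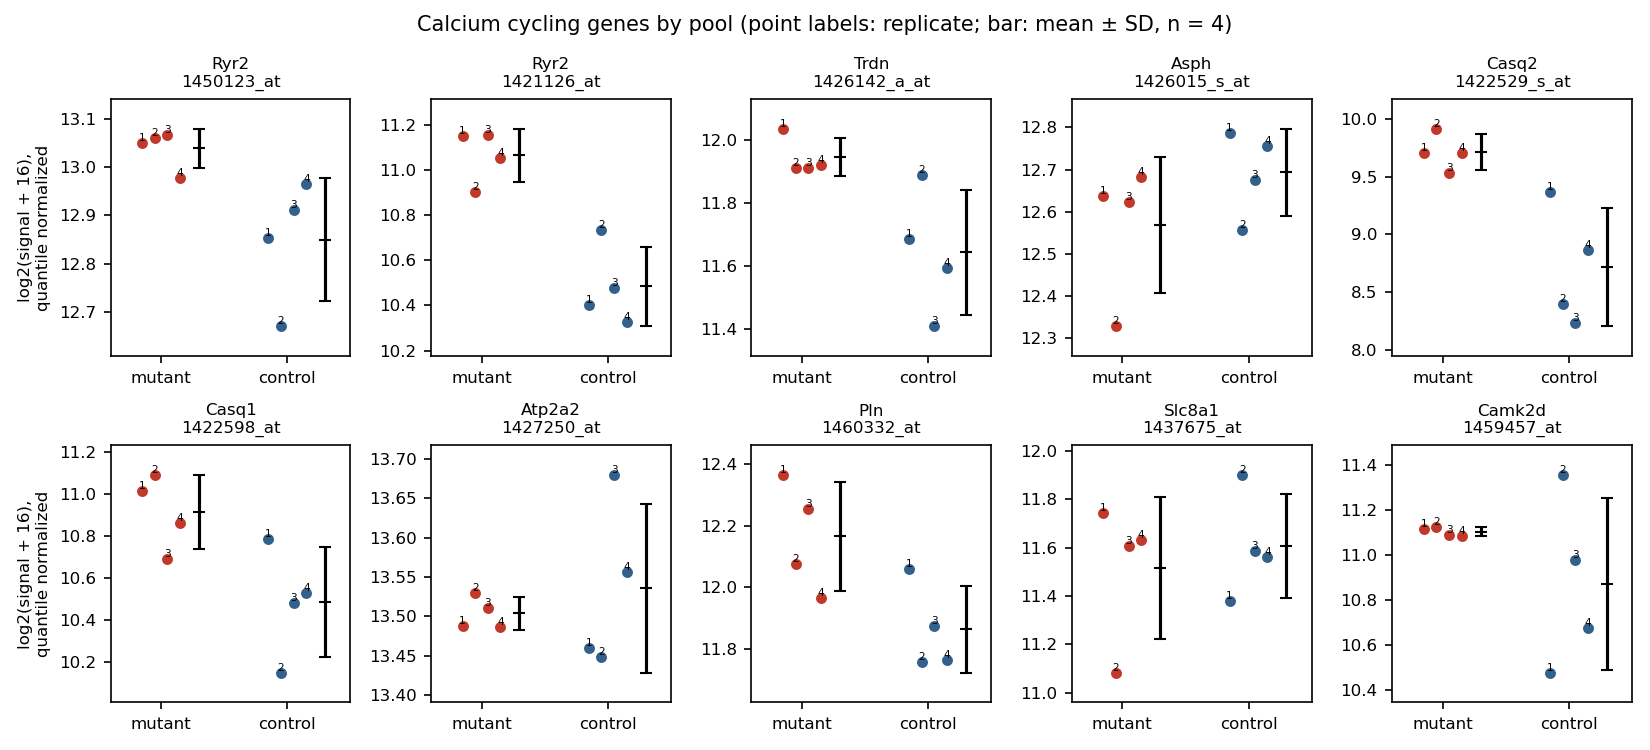
Log2(signal + 16) after quantile normalization (y axis, a separate scale for each panel) in the 4 mutant and 4 control pools, for the brightest probe set of each tested gene and the Ryr2 probe set that passed; bars are mean and SD. Both Ryr2 probe sets, Trdn and Casq2 show mutants above controls without overlap, while the 4 mutant pools of Atp2a2 lie within the range of the controls.

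Atp2a2 encodes SERCA2, the pump that refills the store. On its brightest probe set, 1427250_at, the log2 values were 13.49, 13.53, 13.51 and 13.49 in mutants 1 to 4, against 13.46, 13.45, 13.68 and 13.56 in controls 1 to 4. The 4 mutants fell inside the range of the controls. The change was -0.01 (SE 0.05, 95% confidence interval -0.11 to 0.09, adjusted p = 0.929), so a change of the size seen for Ryr2 probe set 1421126_at lay outside its interval. On the authors' scaling, where the median of all probe sets was -0.10, the value was 0.0735, and with median-centred arrays it lay 0.47 above the median of all probe sets, so its sign depended on the scaling.

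The next 3 Atp2a2 probe sets in brightness had changes of 0.02, 0.12 and 0.25, the last with a 95% confidence interval of 0.0012 to 0.49 and an adjusted p of 0.394. The dim 1427251_at and 1443551_at had changes of 0.24 and -0.06, and their standard errors of 0.31 and 0.28 were several times those of the bright ones. Of the 6, 0 passed (1 was higher and 0 lower at an unadjusted p of 0.05 in limma).

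Pln encodes phospholamban, the inhibitor of the pump. Its brightest probe set, 1460332_at, had log2 values of 12.36, 12.08, 12.25 and 11.97 in mutants 1 to 4 and of 12.06, 11.76, 11.87 and 11.76 in controls 1 to 4. Control 1 lay above mutant 4, and the other 3 controls lay below all the mutants. The change was 0.24 (SE 0.11, 95% confidence interval 0.02 to 0.46, adjusted p = 0.370). The other probe sets had changes of 0.24 (SE 0.19) and 0.09 (SE 0.16), and 0 of the 3 passed (1 was higher and 0 lower at an unadjusted p of 0.05 in limma).

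Sln encodes sarcolipin, a short inhibitor of SERCA pumps that is best known from atrium and skeletal muscle. Neither probe set passed the filter on dim probe sets. Probe set 1420883_at had deposited signals of 13.4, 8.77, 1.88 and 54.7 in mutants 1 to 4 and of 57.4, 78.6, 343.5 and 54.1 in controls 1 to 4, and only mutant 4, control 3 and control 4 were above their background cut-offs. Probe set 1420884_at was above background on 0 mutant arrays and 1 control array. No size of change is given for either, and a low level of Sln could not be told from none.

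Slc8a1 encodes the sodium-calcium exchanger NCX1, which carries calcium out of the cell. Its brightest probe set, 1437675_at, had log2 values of 11.74, 11.08, 11.61 and 11.63 in mutants 1 to 4 and of 11.38, 11.90, 11.59 and 11.56 in controls 1 to 4, and the groups were interleaved. The change was 0.06 (SE 0.12, 95% confidence interval -0.20 to 0.32, adjusted p = 0.859), with values on either side of 0 under the settings tried. Its dimmer probe set 1440201_at had 7.50, 7.99, 7.55 and 7.84 in mutants 1 to 4, against 8.22, 9.42, 9.47 and 7.84 in controls 1 to 4. The high controls of 1440201_at were 2 and 3, the arrays with the raised background, and the change of -0.69 (SE 0.29, adjusted p = 0.352) was -0.39 without them. It passed without control 1 (-1.44, adjusted p = 0.0283) and without control 4 (-1.41, adjusted p = 0.0257). Of the other probe sets, 1425817_a_at had a change of -0.15 (SE 0.21) and the dim 1420210_at one of -0.73 (SE 0.65).

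Camk2d encodes the delta isoform of calcium/calmodulin-dependent kinase II, the main one of heart. Of 6 tested probe sets, 5 had positive changes and 1 a negative one, and 0 passed (2 were higher and 0 lower at an unadjusted p of 0.05 in limma). The brightest, 1459457_at, had closely spaced log2 values of 11.11, 11.13, 11.09 and 11.09 in mutants 1 to 4 and widely spaced ones of 10.48, 11.36, 10.98 and 10.67 in controls 1 to 4, where control 2 lay above all the mutants. Its change was 0.41 (SE 0.12, 95% confidence interval 0.15 to 0.66, adjusted p = 0.244), and it passed without control 3 (0.53, adjusted p = 0.0432). The next, 1422659_at, had a change of 0.09 (SE 0.13) and 1439168_at one of -0.02 (SE 0.195). The other probe sets were not above background on all arrays, and 1456844_at, above it on 2 mutant arrays and 0 control arrays, was not tested. One of these dim probe sets, 1460630_at, passed without control 4, but it was above background on 1 control array and no size is given.

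Leaving out 1 control changed which probe sets passed. Without control 1, Trdn 1426143_at and Casq2 joined Ryr2 1421126_at as higher and Slc8a1 1440201_at was lower, which made 3 higher and 1 lower. Without control 4 the count was 5 higher and 1 lower, with Asph 1425274_at and Camk2d 1460630_at added to those. Without control 3 it was 3 higher and 0 lower, with Trdn 1451940_x_at and Camk2d 1459457_at beside Ryr2. These counts rose together with the calls over all probe sets, which were 1425 higher and 269 lower without control 1, 1339 and 380 without control 4 and 92 and 21 without control 3.

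Of 15 cardiomyocyte markers, 14 had positive changes and 0 passed, with a median of 0.11, and 4 were higher in the mutants without overlap, against 4.44% of all probe sets tested. Their mean log2 value was 13.39 to 13.46 in the mutants and 13.26 to 13.35 in the controls, a difference of 0.13, and their summed signal was 189307 to 216230 in the mutants against 154824 to 185260 in the controls. Cushion mesenchyme markers lay the other way, with 8 of 10 changes negative and a median of -0.57. Of these 10, 5 were lower in the mutants without overlap, against 3.19% of all probe sets tested, and 0 were higher. Their summed signal was 26688 to 34798 in the mutants and 32561 to 38896 in the controls. Epicardial markers had 7 of 7 positive changes, a median of 0.56 and a summed signal of 6804 to 10726 in the mutants against 5461 to 6239 in the controls. Endothelial markers had 8 of 10 positive changes and a median of 0.31, with 3 higher and 1 lower without overlap. Their summed signals were 9989 to 10705 in the mutants and 10237 to 12178 in the controls. Egfl7 (6.87 and 7.25) and Eng (7.88 and 6.60) were lowest on controls 2 and 3, and Tie1 (4.71) on control 2. Cdh5 (9.10) and Esam (8.91) were highest on control 2. Tek, which encodes Tie2, was the 1 endothelial marker that passed, with a change of -0.715 (limma adjusted p = 0.000172). Erythroid markers had 6 of 6 negative changes and a median of -0.42, with summed signals of 37943 to 48583 in the mutants and 31857 to 50666 in the controls. The part of these shifts in the values of the calcium cycling genes was not tested in the fit. The summed signals are on the deposited scale, without quantile normalization, and include controls 2 and 3 with their raised background. Actc1, for instance, had a signal of 13938 on control 2 and 16692 on control 1. Its log2 values there after quantile normalization were 13.97 and 13.98. The part of the scaling in the differences between the sums was not tested.

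Set against the mean of the 15 cardiomyocyte markers on the same array, the genes differed in whether the mutants stayed above the controls. Ryr2 probe set 1421126_at was -2.29, -2.56, -2.26 and -2.34 relative to that mean in mutants 1 to 4, against -2.88, -2.54, -2.88 and -2.94 in controls 1 to 4. The difference of the plain group means was 0.45, and control 2 now lay just above mutant 2. Casq2 was -3.71 ± 0.14 in the mutants and -4.58 ± 0.53 in the controls (SD, n = 4 each), still without overlap. The brighter Ryr2 probe set differed by 0.06 and the brightest Trdn probe set by 0.17, and both overlapped. Atp2a2 1427250_at was 0.04 to 0.100 in the mutants and 0.17 to 0.33 in the controls. It was lower in the mutants without overlap by this measure, with a difference of -0.17. Before the subtraction its plain group means were 13.50 in the mutants and 13.54 in the controls. Atp2a2 1416551_at was also lower without overlap, by -0.13. The groups overlapped for Atp2a2 1452363_a_at (-0.05), 1437797_at (-0.04), 1443551_at (-0.26) and 1427251_at (0.35), so the gene had no single direction by this measure. These differences were computed after the values were known and carry no test. They compare plain group means, and the fitted changes given earlier are weighted by array, so the sizes are not alike. Before the subtraction the plain group means were 11.07 and 10.48 for Ryr2 1421126_at and 9.72 and 8.72 for Casq2. The marker mean was 0.13 higher in the mutants, and the subtraction lowers every plain difference by that amount. A probe set with equal group means is thus lower by 0.13 here. All 15 markers were brighter than Ryr2 1421126_at and Casq2. The least bright markers, Actn2, Tnni3, Tnni1 and Mybpc3, had changes of 0.36, 0.26, 0.12 and 0.30, against a median of 0.11 over the 15. The smallest marker changes were those of Myl4, Myh7 and Actc1, at -0.01, 0.03 and 0.04, so the list itself held flat genes. Whether the differences from the marker mean depend on brightness was not tested.

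**Figure D4:**
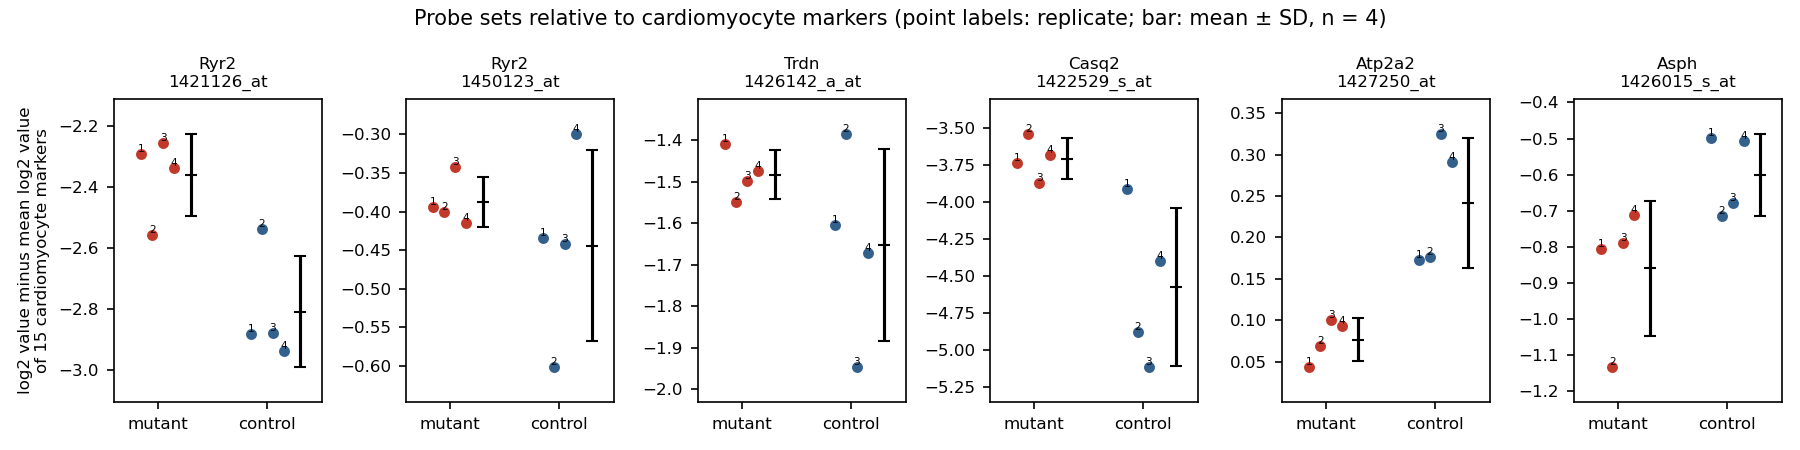
Log2 value of 6 probe sets minus the mean log2 value of 15 cardiomyocyte markers on the same array (y axis, a separate scale for each panel), in mutant and control pools, with mean and SD. Casq2 stays higher in all 4 mutants, and Ryr2 1421126_at overlaps at mutant 2 and control 2. The Atp2a2 probe set drawn, 1427250_at, is lower in all 4 mutants. The marker mean was 0.13 higher in the mutants, which lowers every difference between the groups by that amount.

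Other genes of calcium handling were taken from a list of 57, of which 52 had a probe set and 46 were tested on their brightest. Of these, 0 passed in either direction (at an unadjusted p of 0.05 in limma, 7 were higher and 2 lower), 25 changes were positive and 21 negative, and the median was 0.03, as it was over all probe sets tested. The groups did not overlap for 3 higher and 2 lower genes of the 46, against 7.63% of all probe sets tested, so that this count lay near the general rate.

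Genes of calcium entry had 6 of 8 positive changes, with a median of 0.16. Cacna1h, a T-type calcium channel, had log2 values of 9.15, 9.58, 9.38 and 9.35 in mutants 1 to 4 and of 8.84, 6.74, 7.30 and 9.07 in controls 1 to 4, with a change of 0.85 (SE 0.30, adjusted p = 0.306). The 2 low values belonged to controls 2 and 3. Cacna1c, the pore of the L-type channel that triggers release, had a change of 0.12 (SE 0.08, adjusted p = 0.571).

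Partners of the release channel and other release channels had 7 of 13 positive changes, with a median of 0.05. Tmem38a, a cation channel of the muscle store, had the smallest p of these, with 9.27 to 9.84 in the mutants against 7.77 to 9.36 in the controls and a change of 0.83 (SE 0.25, adjusted p = 0.245). Its lowest values, 7.77 and 7.89, belonged to controls 2 and 3. S100a1, a calcium sensor that binds both the release channel and the pump, had a change of 0.62 (SE 0.297, adjusted p = 0.400), with controls 2 and 3 again lowest.

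Among the remaining pumps and exchangers 3 of 6 changes were positive, with a median of -0.0074. Atp2a3, a SERCA pump of non-muscle cells, had a change of -0.999 (SE 0.40, adjusted p = 0.343). Its high values, 8.42 and 8.21, belonged to controls 2 and 3, the arrays with the raised background. Controls 1 and 4 were at 7.24 and 7.42, and the mutants at 5.78 to 7.43. Atp2a1, the SERCA pump of fast skeletal muscle, was above background on 4 mutant arrays and 1 control array, so no size is given. Lumenal calcium-binding proteins had 6 of 7 negative changes, with a median of -0.05. The reticulocalbins Rcn1 and Rcn2, found in the secretory pathway of many cell types, were lower without overlap, with changes of -0.19 (SE 0.06, adjusted p = 0.260) and -0.20 (SE 0.10, adjusted p = 0.417), and both lay above the median of all probe sets when arrays were centred on their medians (0.45 and 0.32).

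Kinases, phosphatases and cAMP genes had 8 of 12 positive changes, with a median of 0.09. Camk2a, another isoform of the kinase, had a change of 0.33 (SE 0.12, adjusted p = 0.325), and Adcy5, a cardiac adenylyl cyclase, one of 0.51 (SE 0.21, adjusted p = 0.352).

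**Figure D5:**
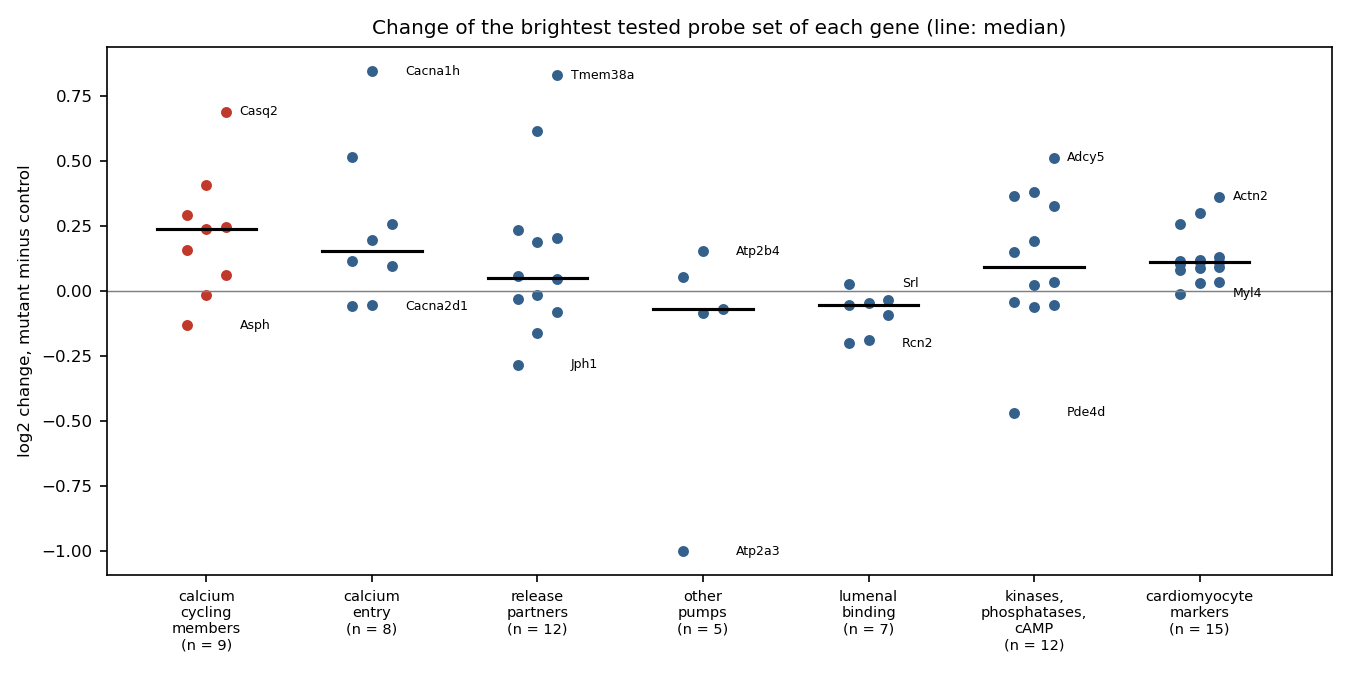
Log2 change (mutant minus control, y axis) of the brightest tested probe set of each gene, by group; each point is a gene, lines are medians of the points shown, and genes above background on fewer than 2 arrays of a group are left out. The calcium cycling genes run from Asph at -0.13 to Casq2 at 0.69, and the cardiomyocyte markers lie in a narrow band with Actn2 at the top.

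The genes whose values over the 8 arrays were most like those of Ryr2 1421126_at, by the root mean square difference of mean-centred log2 values among 7754 genes above background on all arrays, were Pdgfa (0.13), Ppp2r3a (0.13), Hint2 (0.14), Ak7 (0.14) and Ankrd1 (0.15). Pdgfa, a growth factor ligand, and Ankrd1, a muscle ankyrin repeat protein, also passed the threshold, with changes of 0.66 and 0.37. The brightest probe sets of Ppp2r3a, Hint2 and Ak7 had changes of 0.41, 0.55 and 0.55 that did not pass.

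The stretches before the gene start are shown for the gene that passed, for the gene whose brightest probe set had the largest change among the brightest probe sets of the 9 tested genes, and for the pump inhibitor, because the study removed a GATA factor and muscle genes are commonly read by MEF2 factors. RefSeq promoter entries of build GRCm38.p6 matched 6 of the 10 genes, and each sequence is the 250 bases before the annotated start, 5′ to 3′ on the strand of the gene, with capitals for a GATA match (AGATAA or AGATAG or TGATAA or TGATAG on either strand) or a match to the MEF2 consensus. Ryr2 is at chr13:12106946-12107195 on the minus strand, Casq2 at chr3:102086165-102086414 on the plus strand and Pln at chr10:53337436-53337685 on the plus strand.
Ryr2: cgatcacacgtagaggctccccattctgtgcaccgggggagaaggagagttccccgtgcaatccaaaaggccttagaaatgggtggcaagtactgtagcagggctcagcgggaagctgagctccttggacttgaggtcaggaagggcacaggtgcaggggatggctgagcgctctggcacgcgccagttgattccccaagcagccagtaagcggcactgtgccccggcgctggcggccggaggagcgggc
Casq2: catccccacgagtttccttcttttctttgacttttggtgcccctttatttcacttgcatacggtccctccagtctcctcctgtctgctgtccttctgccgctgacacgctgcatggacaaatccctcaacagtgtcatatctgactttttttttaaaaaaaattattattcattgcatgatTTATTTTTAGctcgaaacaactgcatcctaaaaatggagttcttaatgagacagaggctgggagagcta
Pln: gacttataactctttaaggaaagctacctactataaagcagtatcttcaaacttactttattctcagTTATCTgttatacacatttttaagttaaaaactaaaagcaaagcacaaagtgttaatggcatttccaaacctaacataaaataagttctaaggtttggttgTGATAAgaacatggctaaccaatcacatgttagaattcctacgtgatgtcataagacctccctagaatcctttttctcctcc
The Ryr2 window held 0 matches of either kind. Casq2 held 1 MEF2 match, whose first base lay 69 bases before the start, and Pln held 2 GATA matches, at 183 and 82 bases. Slc8a1, not printed, held 3 GATA matches, and Casq1 and Camk2d held 0 of either kind. A GATA match was present in 26.5% and a MEF2 match in 1.7% of the 32851 promoter windows of this length, so a GATA match was common. The matches describe letters and not binding, which was not measured here. The muscle of the canal was also not the tissue targeted by T2Cre.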

How the data were processed

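Per the submitters' processing notes, the deposited probe set intensities, on a linear scale, are MAS5 signals; their plain mean is the same on all 8 arrays. Intensities were taken as log2(signal + 16) and quantile normalized. Array controls (64) and then the dimmest 40% by mean were removed, and the remaining 27022 were fitted with limma 3.58.1 in R 4.3.3, with array weights, trend and robust eBayes. Tests were two-sided, with Benjamini-Hochberg adjustment across the 27022 and a threshold of 0.05. Array weights were 1.29, 0.89, 2.80 and 2.50 for mutants 1 to 4 and 1.36, 0.30, 0.35 and 0.87 for controls 1 to 4. Controls 2 and 3 thus counted least in each fit, although all 4 controls entered it. Fitted changes are weighted, so they can depart from differences of the printed group means. The design text says that 2 controls were excluded for noise without naming them, and all 4 were used. Gene names come from the platform annotation. The members, lists and settings were chosen with earlier results of these data known. All 10 genes are named, and of the pathway lists the 2 genes with the smallest p in each. Sizes are withheld where fewer than 2 arrays of either group exceeded background. Depth does not apply to arrays; their number limits the precision, and p values measure the spread between pools. The alternatives were other scalings, pseudocounts, filters, weights, variance priors, a replicate block, a covariate and arrays left out. The fit was tested on simulated data.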

Additional observations from a re-analysis of the deposited data

Results flagged for a closer look

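Of 76 groups of 4 values (38 probe sets in mutants and in controls), 5 held a sample far from the others by Dixon's test, and chance flags about 1 in 20 groups. In Trdn 1426142_a_at, mutant 1 stood at 12.04 above the other mutants, of which the next was 11.92. In Trdn 1426134_at, control 3 stood at 8.16 below the other controls, of which the next was 9.03. In Atp2a2 1427251_at, control 2 stood at 6.04, and the next control was 7.94. In Atp2a2 1443551_at, mutant 1 stood at 8.09, and the next mutant was 7.60. In Sln 1420883_at, mutant 4 stood at 6.75, and the next mutant was 5.08.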

How the results depend on the processing

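Over all probe sets, calls were 59 higher and 40 lower on the authors' scaling, 17251 and 1956 with median-centred arrays, 22 and 12 with a pseudocount of 64, 14 and 12 with no filter, 26 and 34 with a replicate block, and 1 and 1 without controls 2 and 3. They were 0 and 0 with plain eBayes (3022 in all at an unadjusted p of 0.05 in limma), 3 higher with the 3 prime to 5 prime covariate and 10 lower without array weights. With 1 array left out they ran from 3 to 1425 higher and from 2 to 380 lower. Calls of calcium cycling probe sets were 28 higher and 1 lower with median-centred arrays, and the higher count was 0 with the covariate, without controls 2 and 3, without array weights and with plain eBayes. With 1 array left out they were 0 to 5 higher and 0 to 1 lower. The pathway list had 36 higher and 1 lower with median-centred arrays, and 0 to 5 higher and 0 lower with 1 array left out.

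The Ryr2 1421126_at change was 0.63 with the covariate, 0.75 without controls 2 and 3, 0.58 without array weights and 0.67 with plain eBayes, all short of the threshold, and 0.54 to 0.72 with 1 array left out. The median of the brightest probe sets was 0.17 with the covariate and 0.78 above the shift with median-centred arrays, and 0.17 to 0.26 with 1 array left out. Signs turned for Atp2a2 1427250_at (0.0735 on the authors' scaling, 0.47 with median-centred arrays, 0.0211 without control 3, and -0.0828 to 0.0211 with 1 array left out), for Slc8a1 1437675_at (-0.0906 without array weights, -0.0070 with the covariate, -0.10 without control 1, -0.06 without control 4, and -0.10 to 0.125 with 1 array left out), and with median-centred arrays for Asph 1426015_s_at (0.56), Rcn1 (0.45) and Rcn2 (0.32). For the settings that leave out arrays the construction differs by the arrays kept; elsewhere the cause was not tested. The sample titles give replicate numbers and no pairing. The correlation of deviations from the group means was -0.11, 0.0058, -0.13 and 0.17 for matching numbers 1 to 4. For numbers that did not match it ran from -0.29 to 0.23. With 4 arrays in a group these values cannot exclude a batch shared by number. With the replicate block Ryr2 1421126_at was 0.66 (limma adjusted p = 0.0330).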
